A study of Mus musculus with 2 samples.

Results

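Kupffer cells, the resident macrophages of the liver, were 386 of the 10366 barcodes kept from a mouse liver suspension of 11192 barcodes (3.72% of kept barcodes, exact 95% interval 3.37 to 4.11%). They were chosen by raw counts of unique molecular identifiers (UMI), the tags that mark single captured transcripts. A member had at least 5 UMI of Clec4f, a lectin receptor made in the mouse by Kupffer cells, and at least 30 UMI of Clec4f and the C1q chain genes C1qa, C1qb and C1qc together. It also had at most 5 UMI of the endothelial genes Stab2, Kdr, Ptprb and Clec4g together, at most 1 of the T cell genes Cd3d and Cd3e, under 50 of the immunoglobulin J chain gene Jchain and under 4 of the proliferation genes Mki67 and Top2a. The levels of these genes in Kupffer cells follow from the choice and are given as description.

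The study set Rcrin KO mice, a conditional knockout, against mice labelled WT that carried the floxed Rcrin allele. Both samples had the strain label RedMUC298trTg, were 8 weeks old and held immune cells of the liver, released with collagenase IV, sorted and captured on the 10x Chromium system; the Cre driver, the gate of the sort and the number of animals are not given in the sources used here. Every file of the Rcrin KO sample was identical to its WT counterpart, with all 11192 barcodes shared, so the cells below are 1 sample of unknown genotype. No comparison of genotypes was possible, no test was run, and every interval covers counting error only and not variation between animals. Intervals of levels and ratios treat summed UMI as independent counts, so they also leave out the spread between cells.

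Kupffer cells sit in the sinusoids, the blood channels of the liver, where they take up particles, dying cells, old red blood cells and lipoproteins and recycle their iron and lipid. TIM-4, encoded by Timd4, binds the phosphatidylserine that dying cells expose. MARCO is a scavenger receptor for bacteria and particles, and CD163 takes up complexes of haemoglobin and haptoglobin. In mice, Timd4 is widely used as a marker of Kupffer cells of embryonic origin, whereas monocytes that enter an emptied Kupffer cell niche gain it late.

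The label was checked against 10 Kupffer markers, and each had a UMI in 60.6 to 100% of members. Clec4f, C1qa, C1qb and C1qc are among these markers and were used by the rule, so their shares follow from the choice. Vsig4, a complement receptor of the immunoglobulin superfamily that the rule did not use, had at least 1 UMI in all 386 cells, with a median of 28 and a highest of 91. The members held 5387342 UMI, from 811 to 32750 per cell with a median of 14253, a median of 3713 genes and a median of 6.35% mitochondrial UMI. The cells used for comparison were 880 endothelial-like cells (median 7338 UMI), 286 classical monocyte-like cells (8809 UMI), 237 nonclassical monocyte-like cells (4878 UMI) and 2402 T-like cells (4936 UMI), none of which shared a cell with the Kupffer set. Just inside the limit on Clec4f, 13 members had 5 to 9 UMI, with Clec4f at 1619 counts per 1000000 UMI (CPM), Vsig4 at 1198 CPM and a median depth of 2611 UMI. Just outside it, 9 cells that met every other condition had 1 to 4 UMI, with Clec4f at 743 CPM, Vsig4 at 1062 CPM and a median depth of 2904 UMI. At the limit on endothelial genes, 37 members summed to 4 or 5 UMI and had Vsig4 at 2150.5 CPM. The 14 cells just outside that limit, with 6 or 7 UMI, had Vsig4 at 2151 CPM.

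Timd4, Marco and Cd163 took different forms across the 386 Kupffer cells. Their promoters, the windows that start 250 bases before each gene's start and end 50 bases after it, are shown because the results turn on these genes. In the lines below, capitals mark the letters GAGGAA, the core bound by the macrophage factor PU.1, or TGCTGAC, a stretch of the sites bound by MAF proteins, on either strand.
Timd4: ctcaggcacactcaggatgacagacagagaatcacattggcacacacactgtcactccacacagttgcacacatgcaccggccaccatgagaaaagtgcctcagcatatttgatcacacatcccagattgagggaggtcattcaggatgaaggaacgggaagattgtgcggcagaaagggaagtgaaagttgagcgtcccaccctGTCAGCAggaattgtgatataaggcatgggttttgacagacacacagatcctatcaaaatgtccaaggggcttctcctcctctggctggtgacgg
Marco: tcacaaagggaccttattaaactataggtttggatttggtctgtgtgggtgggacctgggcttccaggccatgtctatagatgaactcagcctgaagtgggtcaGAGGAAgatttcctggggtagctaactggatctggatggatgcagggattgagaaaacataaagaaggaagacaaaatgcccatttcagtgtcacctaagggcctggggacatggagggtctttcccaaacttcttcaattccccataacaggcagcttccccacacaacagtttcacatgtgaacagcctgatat
Cd163: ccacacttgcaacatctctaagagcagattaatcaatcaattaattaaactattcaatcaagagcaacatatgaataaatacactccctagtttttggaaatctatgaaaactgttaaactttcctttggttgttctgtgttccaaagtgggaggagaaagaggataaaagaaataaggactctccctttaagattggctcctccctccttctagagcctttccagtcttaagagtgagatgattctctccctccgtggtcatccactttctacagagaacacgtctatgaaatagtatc
The sequences are those of RefSeq on GRCm38.p6, at chr11:46810549-46810848 on the plus strand for Timd4, chr1:120504975-120505274 on the minus strand for Marco and chr6:124304401-124304700 on the plus strand for Cd163. The Timd4 window held 1 TGCTGAC, read as GTCAGCA on the strand shown, and the Marco window held 1 GAGGAA. The Cd163 window held none of these letters, which says nothing of the factors. GAGGAA stood in 28.3% and TGCTGAC in 4.67% of the 32851 windows in the table.

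Timd4 was found in nearly every Kupffer cell at a narrow range of counts. At full depth, 95.3% of members had a Timd4 UMI (exact 95% interval 92.7 to 97.2%) and 18 had none, with a lower quartile of 3.25, a median of 7, an upper quartile of 10 and a highest of 27 UMI. Among T-like cells, which should lack the gene, 1.04% had a UMI, at their lower median depth of 4936 UMI. The tenth of members richest in Timd4, 39 cells, held 23.3% of its UMI. For genes that the rule did not use, this share was 19.9% for Csf1r, 24.7% for Cd68 and 49.5% for Hmox1. Timd4 was near even among Kupffer cells.

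Marco was uneven between Kupffer cells, from 0 to 158 UMI. At full depth 69.4% of members had a Marco UMI (64.6 to 74.0%) and 118 had none, against 1.75% of T-like cells with one. The lower quartile was 0, the median 3, and the upper quartile 11 UMI, and 107 cells had 10 or more. The richest 39 members held 58.1% of all Marco UMI, so a minority of Kupffer cells carried most of it. Cd163 lay between Timd4 and Marco in the share of UMI held by the richest members, but more members lacked it than lacked either. A Cd163 UMI was found in 60.6% of members (55.6 to 65.5%), against 0.833% of T-like cells, and 152 members had none. Its median was 3, its upper quartile 12 and its highest 50 UMI, 125 cells had 10 or more, and the richest 39 members held 38.9% of its UMI.

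Because depth differed between cells, 371 members with at least 2000 UMI were thinned at random to 2000 UMI each, which left out 15 members. A Timd4 UMI then remained in 63.1% of members (57.9 to 68.0%), against 0.336% of T-like cells thinned alike. Marco remained in 42.6% (37.5 to 47.8%), against 0.588% of T-like cells, and Cd163 in 46.6% (41.5 to 51.9%), against 0.336%. The share at 0 was 36.9% for Timd4, against 35.3% expected if every cell drew from 1 Poisson level of the same mean. For Marco the share at 0 was 57.4%, against 21.1% expected, and for Cd163 it was 53.4%, against 35.8%. The variance over the mean, which is 1 for Poisson counts, was 1.09 for Timd4, 6.64 for Marco and 2.09 for Cd163. Across the 1045 genes with a mean of at least 0.3 UMI it had a median of 1.13, a 5th percentile of 0.946 and a 95th percentile of 2.0997, just above Cd163. Marco was 9th and Cd163 55th in that order, while Timd4 was 636th. At equal relative spread this measure rises with the mean, so the order compares only genes of like mean. The means were 1.04 UMI for Timd4, 1.56 for Marco and 1.03 for Cd163.

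**Figure D1:**
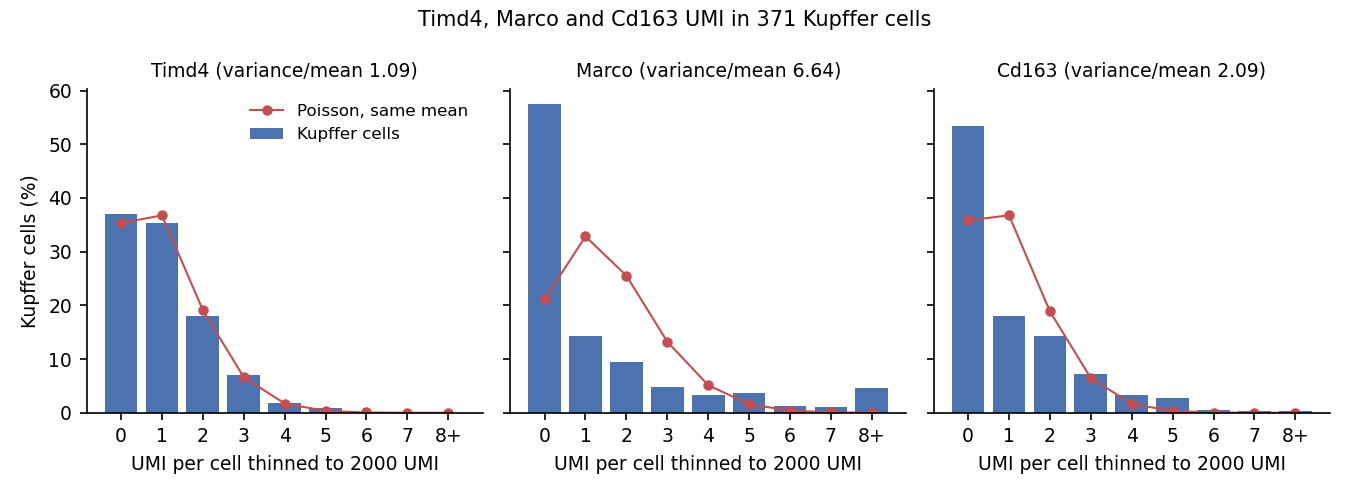
Share of 371 Kupffer cells (%, vertical axis) by the number of UMI of Timd4, Marco and Cd163 (horizontal axis) after each cell was thinned to 2000 UMI; bars are the cells and red points a Poisson distribution with the same mean. The bars of Timd4 follow the points, whereas Marco has 57.4% and Cd163 53.4% of cells at 0, above the 21.1 and 35.8% of the points.

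The differences between cells in Marco and Cd163 were also present in UMI that were not used to sort the cells. Each member's UMI were divided at random into parts A and B; part A was thinned to 1500 UMI and used to mark a cell as detected (2 or more UMI of the gene) or undetected (0 UMI), and levels were read in part B, in 360 cells deep enough. Marco was at 2511 CPM (2378 to 2650) in the 71 Marco-detected cells and 212 CPM (191 to 235) in the 231 undetected cells, a ratio of 11.8 (10.5 to 13.3). Cd163 was at 1176 CPM (1086 to 1271) in 70 detected cells and 169 CPM (150 to 191) in 215 undetected cells, a ratio of 6.94 (6.005 to 8.04). Timd4 was at 547 CPM (488 to 612) in 72 detected cells and 489 CPM (452 to 529) in 179 undetected cells, a ratio of 1.12 (0.973 to 1.28). The Timd4 interval included 1 here and lay above 1 in 6 of 10 alternative settings, with ratios between 1.09 and 1.40, while the Marco ratio ran from 6.63 to 15.5 and the Cd163 ratio from 3.75 to 6.94. The lowest Cd163 ratios were 3.75 with part A thinned to 1000 UMI and 4.61 without Scrublet doublets, and the lowest for Marco 6.63 with at most 5% mitochondrial UMI. Median depths were 14876 UMI in Marco-detected and 14594 UMI in Marco-undetected cells, 16234 and 14955 UMI for Cd163, and 15772 and 14425 UMI for Timd4. The undetected cells were not empty of the genes, since thinned part B of 1000 UMI still showed Marco in 14.3% and Cd163 in 13.5% of them, above the shares in T-like cells given above.

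**Figure D2:**
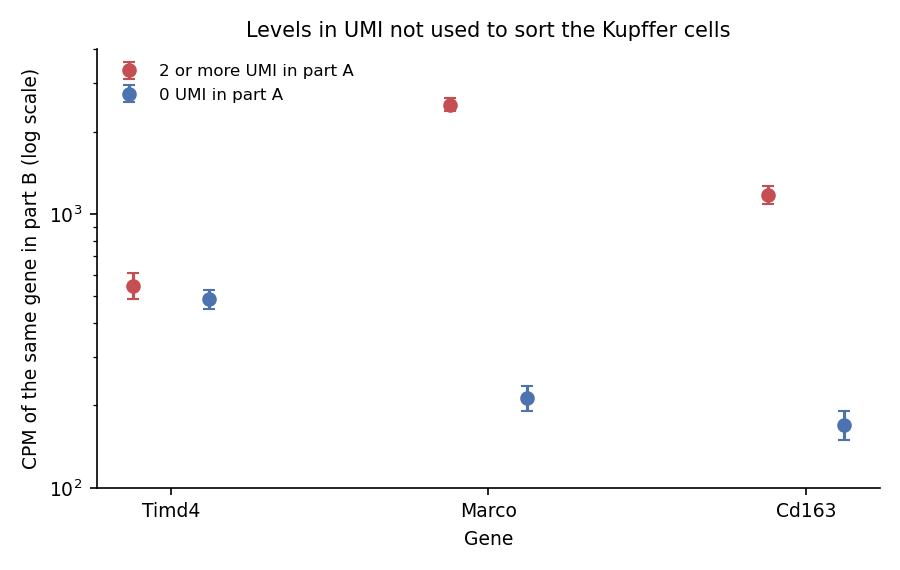
CPM in part B (vertical axis, log scale) of Timd4, Marco and Cd163 in Kupffer cells with 2 or more UMI of the same gene in part A (red) and with 0 UMI (blue); bars are exact Poisson 95% intervals of the summed counts. Marco differs 11.8-fold and Cd163 6.94-fold between the sets, and Timd4 1.12-fold.

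By presence after thinning, the 3 genes occurred close to independently of each other in Kupffer cells. Timd4 and Marco were found together in 99 cells, where independent occurrence gives 99.7 cells. Timd4 and Cd163 were found together in 108 cells against 109 for independence, and Marco and Cd163 in 75 cells against 73.7. All 8 combinations of the genes occurred, from 26 cells with Marco and Cd163 but no Timd4 to 76 cells with Timd4 alone. The cells with all 3 genes numbered 49, against 46.5 for independence, and those with none 39, against 42.0. Each of the 8 combinations had a number of cells near the one that independence gives. Thinned Timd4 counts were close to Poisson, so which cells showed Timd4 was largely sampling. Numbers of cells that involve Timd4 could therefore hardly show a dependence, and only the pair of Marco and Cd163 bears on the question.

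Other genes also had a variance over the mean well above 1. The 15 genes with the largest variance over the mean were S100a9, S100a8, Ccl4, Malat1, Apoe, Ccl3, Cxcl13, Cxcl2, Marco, Gm42418, Cd74, Neat1, Hmox1, Fth1 and Tmsb4x. Some were far more abundant than Marco, at a mean of 1.56 UMI. Fth1, Apoe, Malat1 and Tmsb4x had means of 13.7, 29.6, 34.5 and 44.1 UMI, so their places do not show that they were as uneven. The calprotectin genes S100a9 and S100a8, which neutrophils make in large amounts, led at 46.6 and 44.7, but a single cell held 47.7% of the S100a9 and 40.0% of the S100a8 UMI. The chemokine genes Ccl4 and Ccl3, which attract leukocytes, followed at 15.3 and 9.87. At full depth Ccl4 had no UMI in 193 of 386 members and a highest of 202, and its richest 39 cells held 69.1% of its UMI. Ccl3 and Ccl4 were high in the same thinned cells (Pearson r 0.83, Spearman rho 0.27 over 371 cells, which share 1 library). Among T-like cells 39.1% had a Ccl4 UMI and 16.3% a Ccl3 UMI, at their lower median depth. Cxcl13, the chemokine that draws B cells into follicles, stood at 7.43. It had a UMI in 56.0% of members, a median of 1 and a highest of 160 UMI, and the richest 39 cells held 69.0% of it, against 0.791% of T-like cells with a UMI. Cxcl2, which attracts neutrophils, was at 7.13, with quartiles of 10, 41.5 and 86 UMI and a highest of 253.

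The lipoprotein gene Apoe had a variance over mean of 12.6 although every member carried it, from 5 to 701 UMI with a median of 171. Hmox1, haem oxygenase, which opens the haem ring of red cell haemoglobin, stood at 4.79, with quartiles of 3, 6 and 13 UMI and a highest of 141. The invariant chain gene Cd74, which escorts class II molecules, was at 4.88, with a highest of 602 UMI. The class II genes H2-Aa and H2-Ab1 moved together between cells (Pearson r 0.69, Spearman rho 0.60). Other Kupffer cell genes outside the rule ran from 1.14 to 2.11, at unlike means. Cd5l was at 2.11, 52nd in the order, but at a mean of 13.5 UMI, against 1.03 UMI for Cd163. At full depth the richest 39 members held 20.5% of Cd5l UMI, against 38.9% of Cd163 UMI. Slc40a1, the iron exporter gene, was at 2.005, 62nd, at a mean of 4.39 UMI. Vsig4 was at 1.47, the folate receptor gene Folr2 at 1.33 and Csf1r, the receptor for the macrophage growth factor CSF1, at 1.14. Fabp7, a fatty acid binding protein gene, was 53rd in the order, with 65 members at 0 and a highest of 53 UMI.

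**Figure D3:**
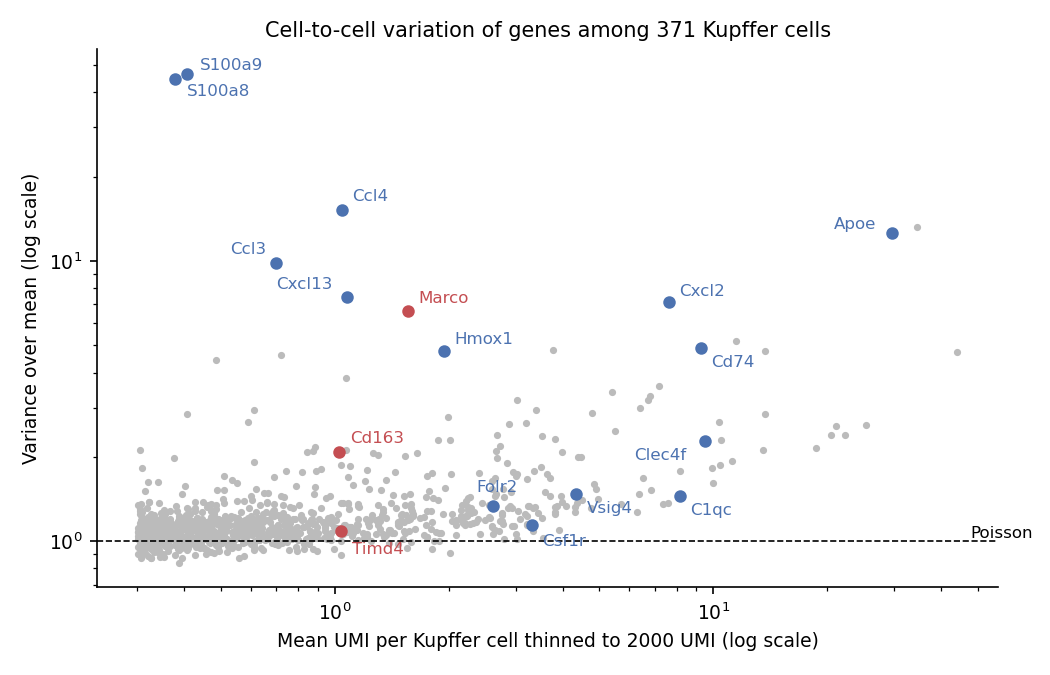
Variance over mean (vertical axis, log scale) against mean UMI per cell (horizontal axis, log scale) for 1045 genes in 371 Kupffer cells thinned to 2000 UMI; the dashed line is the Poisson value of 1. Marco (6.64) and Cd163 (2.09), in red, lie above most genes, and Timd4 (1.09) lies near the line.

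Marco-detected Kupffer cells had less of the class II and immediate early transcripts than Marco-undetected cells. Ratios are of part B CPM. Over the 6706 genes with at least 30 UMI in both sets together, 5.76% had a ratio above 1.5 and 9.87% a ratio below 1/1.5, with a median log2 ratio of -0.01. All 16 immediate early genes, which are switched on within minutes of a stimulus and also by tissue digestion, had ratios below 1. Their median log2 ratio was -0.38, and 4 of 16 lay below 1/1.5. Atf3, a stress-induced transcription factor, was at 360 CPM in Marco-detected and 729 CPM in Marco-undetected cells (ratio 0.494, 0.422 to 0.576), and Btg2, an antiproliferative gene, at 449 and 767 CPM (0.586, 0.508 to 0.673). Fos (0.880), Egr1 (0.859) and Dusp1 (0.876) lay closer to 1. With 68 members of at most 5% mitochondrial UMI, 10 of 16 genes were below 1 and the median was -0.06; under the other 9 alternatives 15 or 16 were. How much of the difference arose during digestion was not tested.

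Of 8 class II genes tested, 7 had ratios below 1, with a median log2 ratio of -0.44 and none past 1.5-fold. The class II list also holds the protease gene Ctss, which is in the lysosome list as well. H2-Aa was at 1289 CPM in Marco-detected and 1870.5 CPM in Marco-undetected cells (0.689, 0.633 to 0.749), H2-Ab1 had a ratio of 0.708 (0.650 to 0.771), H2-Eb1 0.687 (0.618 to 0.762) and Cd74 0.713 (0.678 to 0.749). Over 11 alternative settings 7 or 8 class II genes stayed below 1, with medians from -0.67 to -0.39 on the log2 scale. Markers of B cells, which also carry class II genes, moved the same way: 4 of 10 were tested and all 4 were below 1/1.5, with a median log2 ratio of -1.64. The 10 summed to 100.4 CPM in Marco-detected and 249 CPM in Marco-undetected cells, and Cd79a and Ighd were at 0 in the detected cells. Without the 39 members that had 2 or more UMI of the 7 B cell markers other than immunoglobulin genes, 8 of 8 class II genes were below 1, with a median log2 ratio of -0.62. Apoe was at 11393 CPM in Marco-detected and 15708 CPM in Marco-undetected cells (0.725, 0.705 to 0.746). The transcription factor genes Klf2 and Klf4 were also lower (0.602 and 0.636). The ratio of H2-Ab1 lay between 0.579 and 0.729, of Apoe between 0.666 and 0.796 and of Klf2 between 0.602 and 0.772 over all settings. Chemokine genes had Ccl3 at 0.729 and Ccl4 at 0.745, and the inflammatory cytokine gene Il6 at 0.622 (0.459 to 0.831). The cytokine and chemokine list had 1 of 21 tested genes above 1.5 and 4 below 1/1.5. Ccl3, Ccl4 and Il6 were not read under alternative settings.

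Of 13 scavenger and clearance receptors 11 were above 1 and 2 above 1.5 (median log2 ratio 0.16), of 16 lipid genes 9 were above 1 and 4 above 1.5 (0.11), and of 15 iron and haem genes 9 were above 1 and 2 above 1.5 (0.10). With at most 5% mitochondrial UMI the counts above 1 were 4 of 8, 5 of 12 and 6 of 14. The iron and haem list also holds Hpgd, a gene of prostaglandin breakdown. Among single genes, Cxcl13 was at 859 CPM in Marco-detected and 381 CPM in Marco-undetected cells (2.25, 1.99 to 2.55), with a UMI in 39 of 71 and 110 of 231 cells. Cd36, a scavenger receptor and fatty acid transporter, had a ratio of 2.67 (1.83 to 3.87), Cd209f, a C-type lectin gene, 2.98 (1.89 to 4.69), and Cd55, which restrains complement on the cell surface, 2.16 (1.58 to 2.95). Tfrc, the transferrin receptor, was at 1.84 (1.35 to 2.48), Cdh5, the cadherin of endothelial cells that Kupffer cells of the mouse also carry, at 652 CPM in Marco-detected and 435 CPM in Marco-undetected cells (interval of the ratio 1.32 to 1.71), and Igf1, a growth factor gene, at 1.41 (1.254 to 1.58). The iron exporter gene Slc40a1 stood at 1.24 (1.16 to 1.32), Cd5l, a secreted scavenger-like protein of macrophages, at 1.24 (1.19 to 1.28) and Fcna, a ficolin that starts the lectin pathway of complement, at 1.39 (1.30 to 1.49). Over 10 alternatives the interval was above 1 in 5 for Tfrc, 6 for Cd55, 8 for Cd36 and Cd209f, and 9 for Cdh5, Igf1, Slc40a1, Cd5l and Fcna, while that of H2-Ab1 and that of Cd74 were below 1 in all 10. With at most 5% mitochondrial UMI, Cd36 had no UMI in the detected set, Cd55 (0.452), Tfrc (0.862), Cdh5 (0.906) and Igf1 (0.945) were below 1, and the intervals of Slc40a1, Cd5l and Fcna included 1. Cd55 was also at 1.28 with Clec4f at least 3 UMI, 1.26 with at least 2000 UMI and 1.34 with at most 2 UMI of the endothelial genes, each with an interval that included 1. Tfrc was at 1.09 without Scrublet doublets. With at most 2 UMI of the endothelial genes Cd209f was at 0.847, and it was at 1.75 with another random division. Cxcl13 stayed above 1 in all 10 alternatives, between 1.12 and 2.68, with an interval above 1 in 9 of them.

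The C1q chain genes differed little between the Marco sets, with C1qa at 0.991 (0.948 to 1.04), C1qb at 0.995 (0.952 to 1.04) and C1qc at 1.06 (1.01 to 1.11). Clec4f was at 1.01. The rule required these genes of every member, so their ratios are given as description only. Outside the rule, Folr2 was at 1.06, the interval of Vsig4 ran from 0.938 to 1.08, and Timd4 was at 1.09, with an interval that included 1. Of 16 lysosome genes none passed 1.5-fold, with a median log2 ratio of 0.05, and of 13 growth factor receptor genes none did, with a median of -0.06. Several of the most extreme ratios rested on few cells. Hbb-bs, a haemoglobin gene, had a ratio of 32.8, with 88.9% of its UMI in 1 cell. Siglech and Ccr9, both genes of plasmacytoid dendritic cells, had no UMI in the Marco-detected cells and 39 and 42 UMI in 6 and 3 of the undetected cells. Without the 14 members that held 10 or more UMI of genes of another blood lineage, the 372 others gave 16 of 16 immediate early and 8 of 8 class II genes below 1.

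**Figure D4:**
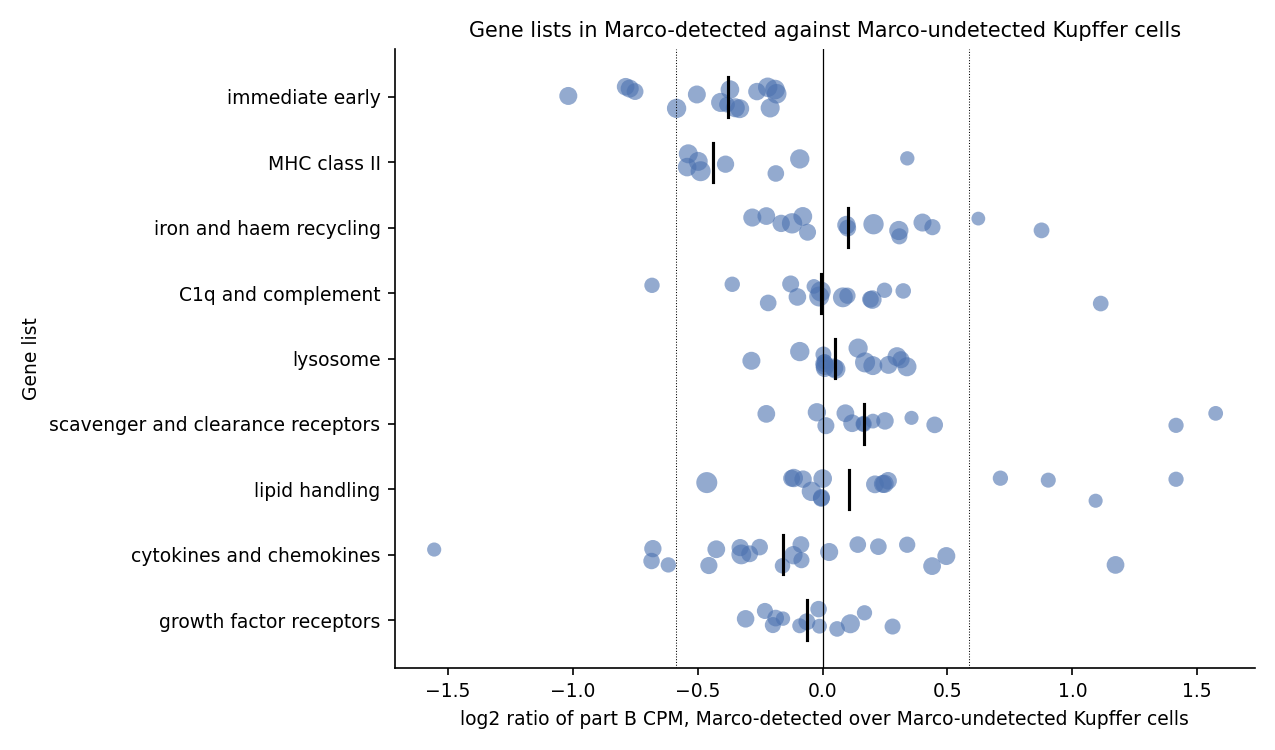
log2 ratio of part B CPM, Marco-detected over Marco-undetected Kupffer cells (horizontal axis), for the genes of 9 lists (rows); each point is a gene, its size grows with its UMI, black bars are list medians and dotted lines mark 1.5-fold. The 16 immediate early genes lie left of 0 (median -0.38), and 7 of 8 class II genes do (median -0.44).

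Cd163-detected Kupffer cells differed little from Cd163-undetected cells in these lists. Over 6583 genes, 5.15% had a ratio above 1.5 and 7.87% one below 1/1.5. The 16 immediate early genes had a median log2 ratio of -0.03, with 1 below 1/1.5, and the 8 class II genes one of -0.07, with none past 1.5-fold. Ccl7, a monocyte chemokine gene, was at 132 CPM in Cd163-detected and 51.1 CPM in Cd163-undetected cells (2.59, 1.85 to 3.61), with UMI in 10 of 70 and 24 of 215 cells. Ccl3 had a ratio of 0.590 (0.475 to 0.727), the anti-inflammatory cytokine gene Il10 0.712 (0.580 to 0.868) and Marco 0.729 (0.645 to 0.824). The cytokine and chemokine list as a whole had 2 of 21 tested genes above 1.5 and 1 below 1/1.5. Ccl7, Ccl3 and Il10 were not read under alternative settings in this comparison. Timd4-detected cells showed 5.03% of 6266 genes above 1.5 and 7.09% below 1/1.5, against Timd4-undetected cells. None of the 16 immediate early and none of the 8 class II genes passed 1.5-fold there, with median log2 ratios of -0.10 and -0.05. The Timd4 sets differed only 1.12-fold in Timd4 itself (0.973 to 1.28), so they were close to a random division of the cells. Marco was higher in Timd4-detected cells by 1.55-fold (1.39 to 1.73) and Cd163 lower at 0.733 (0.630 to 0.850). These relations between the 3 genes were not stable. Over 10 alternatives Marco between Timd4 sets ran from 0.513 to 1.73, with an interval above 1 in 8 and below 1 in 1; with another random division it was at 1.20. Cd163 between Timd4 sets ran from 0.480 to 1.12, with an interval below 1 in 4, and Marco between Cd163 sets from 0.703 to 1.23, with an interval below 1 in 4 and above 1 in 1. S100a8 was at 0.050 in the Timd4 and 0.049 in the Cd163 comparison, with 57.8 and 51.4% of its UMI in 1 cell.

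Against the monocyte-like cells of the suspension, Kupffer cells had more of clearance, complement, iron and lipid genes; against endothelial-like cells this was seen in complement, iron and lipid genes. CPM of summed UMI were compared on the log2 scale after adding 1 CPM, for genes with at least 20 CPM in either class. Past 2-fold, 14.9% of 6316 genes were higher and 13% lower in Kupffer than in classical monocyte-like cells, 18.6% of 6300 higher and 15.2% lower than in nonclassical monocyte-like cells, and 14.1% of 7308 higher and 26% lower than in endothelial-like cells. The median log2 ratio of all genes was -0.02, 0.03 and -0.34 in these comparisons. All 13 Kupffer identity genes tested were more than 2-fold higher than in either monocyte class (median log2 ratio 7.97 and 7.80), Clec4f among them by the rule. Cd5l was at 6624 CPM in Kupffer cells, against 12.1, 15.7 and 17.2 CPM in classical monocyte-like, nonclassical monocyte-like and endothelial-like cells, and Vsig4 at 2087 CPM, against 3.77, 6.26 and 4.93 CPM. Timd4 (516 CPM), Marco (762 CPM) and Cd163 (491 CPM) were between 0.783 and 5.66 CPM in these other classes.

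Receptors for dying cells and particles set Kupffer cells apart from monocytes. All 13 scavenger and clearance receptors tested were more than 2-fold higher than in classical monocyte-like cells (median log2 ratio 2.22), and 9 of 13 higher and 1 lower than in nonclassical monocyte-like cells. Mrc1, the mannose receptor, was at 895 CPM in Kupffer cells and 28.7 CPM in classical monocyte-like cells, but at 2173 CPM in endothelial-like cells. Against endothelial-like cells 6 of 13 scavenger and clearance receptors were higher and 4 lower, with sums of 4310 CPM in Kupffer and 5033 CPM in endothelial-like cells, and 6 of 12 genes for taking up dying cells were higher and 5 lower. Of 10 genes for taking up dying cells (efferocytosis), 7 were higher and 1 lower than in classical monocyte-like cells. The receptor kinase genes Axl and Mertk were at 630.5 and 436 CPM in Kupffer cells and at 18.9 and 1.51 CPM in classical monocyte-like cells. The exception was Anxa1, which encodes the phospholipid-binding protein annexin A1, at 2.97 CPM in Kupffer cells and 459 CPM in classical monocyte-like cells.

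Of 16 complement genes, 11 were higher and 3 lower than in classical monocyte-like cells, and of 15 tested 12 were higher and 2 lower than in endothelial-like cells. C1qa, C1qb and C1qc are among the higher genes in both comparisons, and their levels follow from the rule. Beside the C1q chains, Cfp, which encodes properdin, the stabiliser of the alternative pathway, was at 1148 CPM in Kupffer cells and 75.4 CPM in classical monocyte-like cells, and C4b, complement component 4, at 431 and 2.26 CPM. Itgam, a chain of complement receptor 3, went the other way at 31.5 CPM in Kupffer cells, against 213 and 317 CPM in classical and nonclassical monocyte-like cells. Fcna was at 1816 CPM in Kupffer cells, against 3.77 CPM in classical monocyte-like cells. Among receptors for antibody, Fcgr4 was at 377 CPM in Kupffer cells, against 17.7 and 458 CPM in classical and nonclassical monocyte-like cells. Fcgr2b, the inhibitory receptor, was at 12.1 CPM in Kupffer cells, against 218 CPM in classical monocyte-like and 2499 CPM in endothelial-like cells.

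Iron and lipid genes were largely higher in Kupffer cells, also against endothelial-like cells, with 14 of 15 iron and haem genes higher and none lower, and 12 of 17 lipid genes higher and 3 lower. Of 15 iron and haem genes 12 were more than 2-fold higher and none lower than in classical monocyte-like cells (median log2 ratio 2.62). The list also counts Hpgd, a gene of prostaglandin breakdown, which was among the higher genes in both comparisons. Slc40a1 was at 2132 CPM in Kupffer cells and 3.77 CPM in classical monocyte-like cells, and Hmox1 at 998 and 102 CPM, while the ferritin gene Fth1 was at 6831 and 7183 CPM. Of 17 lipid genes 13 were higher and 1 lower (median log2 ratio 2.89). Apoe was at 14571 CPM in Kupffer cells and 892 CPM in classical monocyte-like cells, Lpl, lipoprotein lipase, at 1008 and 96.5 CPM, and Pltp, phospholipid transfer protein, at 923 and 19.6 CPM. Among 16 lysosome genes, 9 were higher and none lower, with the protease gene Ctsd at 1853 CPM in Kupffer cells and 140 CPM in classical monocyte-like cells. In the cytokine and chemokine list, the growth factor gene Igf1 was at 627 CPM in Kupffer cells and 1.51 CPM in classical monocyte-like cells. The eosinophil chemokine gene Ccl24 was at 502 and 10.2 CPM.

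Class II genes were less distinct. Of 8 tested, 2 were more than 2-fold higher than in classical monocyte-like cells (median log2 ratio 0.65), 7 were higher than in nonclassical monocyte-like cells (2.15) and 8 higher than in endothelial-like cells (3.92). The 8 include the protease gene Ctss, at 2298 CPM in Kupffer cells and 1546 CPM in classical monocyte-like cells. Cd74 was at 4622 CPM in Kupffer cells, against 2199, 1585 and 323 CPM in these classes. Of 19 transcription factor genes of macrophage identity, 11 were higher and 2 lower than in classical monocyte-like cells. Id3, which Kupffer cells of the mouse need for their development, was at 1391 CPM in Kupffer cells and 381 CPM in classical monocyte-like cells, Maf at 1164 and 64.5 CPM, and Cebpb at 1707 and 2574 CPM. All 16 immediate early genes passed the level limit and 8 were higher than in classical monocyte-like cells (median log2 ratio 1.19), among them Egr1 at 2586 CPM in Kupffer cells and 124 CPM in classical monocyte-like cells.

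Genes that mark cells recently derived from monocytes were mostly lower in Kupffer cells than in monocyte-like cells. Of 13 tested, 12 were more than 2-fold lower in Kupffer than in classical monocyte-like cells (median log2 ratio -6.43). Some genes of the list were used to choose the monocyte classes, so part of this difference follows from the choice. F13a1, a gene of classical monocytes, had 1 UMI in all Kupffer cells together, 0.186 CPM against 782 CPM in classical monocyte-like cells (ratio 0.000237, 6.01e-06 to 0.00132), although it is among the genes that chose the monocyte class. Plac8 was at 588 CPM in Kupffer cells and 4991 CPM in classical monocyte-like cells. The exception was Treml4, a receptor of nonclassical monocytes, at 160 CPM and in 78.0% of Kupffer cells, against 5.28 CPM in classical and 438 CPM in nonclassical monocyte-like cells. It was at 1.39 CPM in T-like cells. Against endothelial-like cells, 3 of 5 tested genes of the list were higher in Kupffer cells and 1 lower. The list summed to 956 CPM in Kupffer and 315 CPM in endothelial-like cells.

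**Figure D5:**
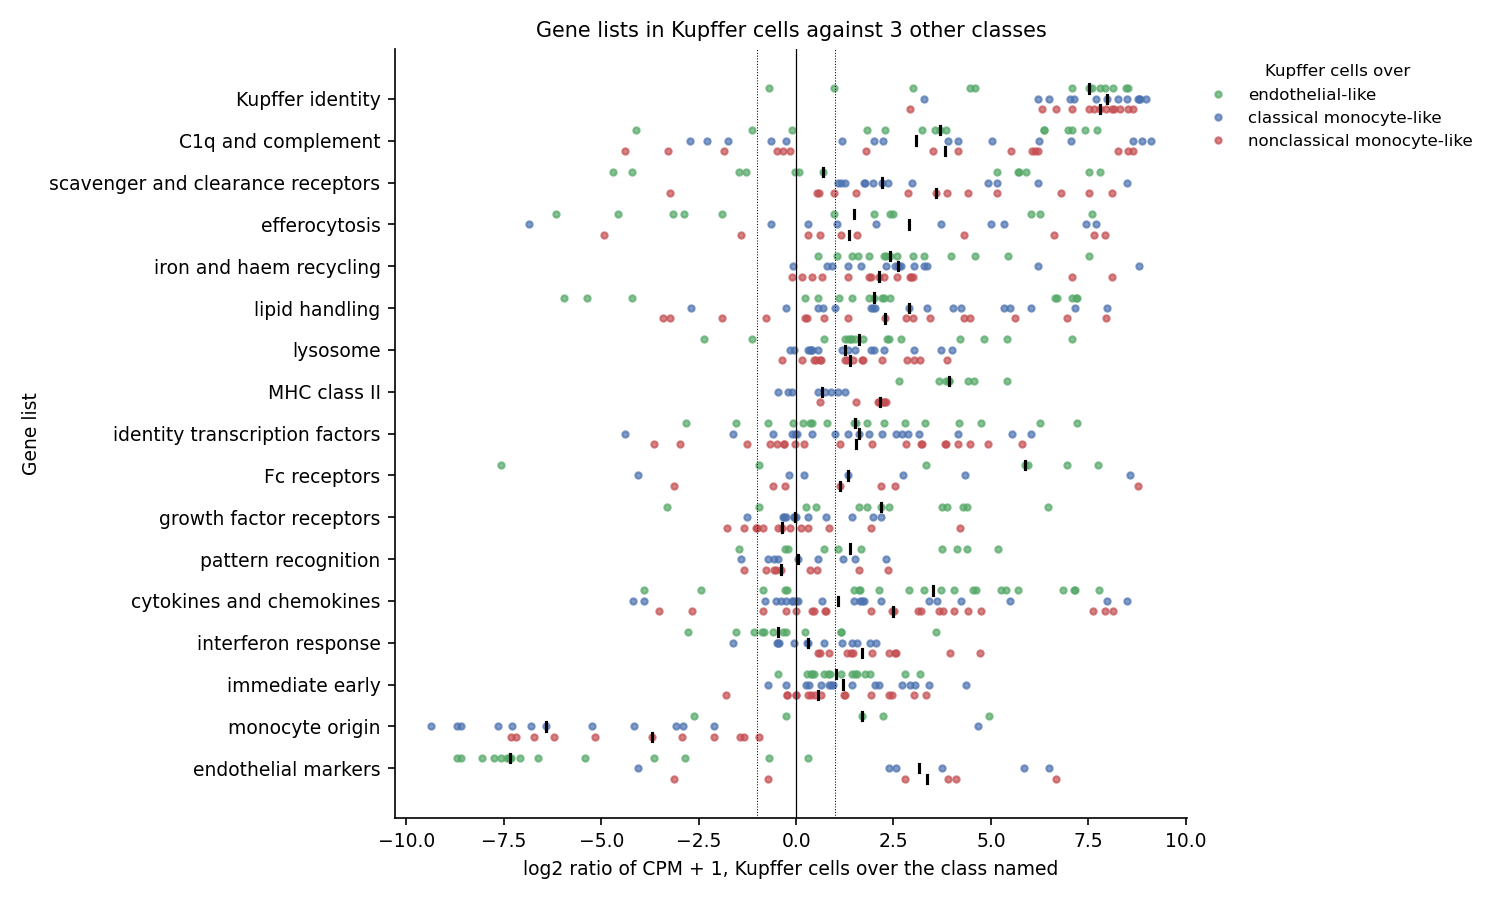
log2 ratio of CPM + 1, Kupffer cells over endothelial-like (green), classical monocyte-like (blue) and nonclassical monocyte-like cells (red), for 17 gene lists (rows); each point is a gene with at least 20 CPM in either class, black bars are medians and dotted lines mark 2-fold. Kupffer identity genes lie far right (median 7.97 over classical monocyte-like cells) and monocyte genes far left (-6.43); some genes of both lists and of the endothelial list were used to choose the classes.

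Marker lists of other liver cells had UMI in the Kupffer set. The 13 hepatocyte markers summed to 1130 CPM in Kupffer cells, against 199 CPM in T-like cells; 229 CPM of this was the albumin gene Alb, which 22.8% of T-like cells also carried. The transferrin gene Trf gave 667 CPM and was found in 96.1% of members, at 16.2 times its level in endothelial-like cells, whereas Alb was at 1.72 times. The 16 endothelial markers summed to 870 CPM in Kupffer cells, against 125 CPM in T-like cells, of which Cdh5, found in 94.3% of members, gave 499 CPM. Stab2 was at 72.8 CPM under the rule's limit, while Esam, an endothelial junction gene outside the rule, had 10 UMI in all members together, or 1.86 CPM, against 535 CPM in endothelial-like cells. The 11 T cell markers summed to 30.4 CPM in Kupffer cells, against 5390 CPM in T-like cells. The 10 neutrophil markers summed to 494 CPM, against 914 CPM in T-like cells, and 10 members held 76.2% of these UMI. Every list other than the erythroid one had UMI in all its genes. The settings that bear on these transcripts left out the 14 members named, the Scrublet doublets, or members with over 2 UMI of the endothelial genes; none was chosen on hepatocyte genes, and the part of those in the values above was not tested.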

How the data were processed

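Single-cell RNA libraries of mouse liver immune cells were analysed from the deposited matrix of whole-number UMI counts, not normalized as its values show. The submitters' processing notes name STAR, Cell Ranger 2.1.1, the mm10 build and Seurat 2.3.4, whereas version 3.0.0 of the writing software stands in the matrix, per the file headers. Barcodes under 500 UMI, under 200 genes or over 10% mitochondrial UMI were left out. Of the 10366 barcodes kept, Scrublet called 351 doublets (3.39%), 13 among the 386 members; these were removed in an alternative only. Kupffer and comparison cells were chosen by raw UMI limits on marker genes. UMI were summed per class as CPM in Python 3.11.15 with numpy 2.4.6, scipy 1.17.1 and scanpy 1.11.5, with exact Clopper-Pearson, Poisson and conditional 95% intervals, which cover counting error only. Thinning to 2000 UMI and the division into parts A and B used fixed seeds, and the code was tested on simulated data.

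The members, the 26 gene lists (326 of 328 genes in the matrix) and the comparisons were chosen with earlier results of these data known. By rule, the genes named were Timd4, Marco and Cd163, those of the selection rule, in each list the 5 of highest CPM and the one of lowest ratio to classical monocyte-like cells, the 15 most variable, per class comparison the 10 of highest ratio, and per split the 12 highest and 12 lowest ratios among genes whose interval lay past a set fold. Other genes named were chosen after their values were seen. RefSeq promoters of GRCm38.p6 matched the 3 genes by symbol. Alternatives for single genes, gene lists and B cell genes were chosen after seeing the data. Lineage genes used to leave out 14 members were S100a8, S100a9, Retnlg, Siglech, Ccr9, Cd79a, Ms4a1, Trac and Hbb-bs.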

Additional observations from a re-analysis of the deposited data

How the results depend on the processing

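Across the alternatives, 72 of 102 values of the main results stayed within the interval or the 1.5-fold range of the reported value. The member count fell to 68 cells with at most 5% mitochondrial UMI and to 290 with at most 2 UMI of the endothelial genes. Thinned to 1000 UMI, the shares were 41.9% for Timd4, 33.2% for Marco and 31.4% for Cd163, and thinned to 4000 UMI they were 84.2, 52.0 and 55.6%. The order of Marco and Cd163 thus turned with the thinning. The Timd4 ratio was 1.35 with at most 2 endothelial UMI and 1.40 with at least 2000 UMI. The Marco ratio was 14.4 and 14.1 with Clec4f at least 3 or 10 UMI, 6.63 with at most 5% mitochondrial UMI, 15.5 with at least 2000 UMI, 13.5 with another seed and 7.92 with at least 1 UMI in part A. The Cd163 ratio was 5.27 and 5.02 with the Clec4f limits, 5.49 with at least 2000 UMI, 5.08 with another seed and 5.72 with at least 1 UMI in part A; it was 4.61 without Scrublet doublets and 3.75 with part A thinned to 1000 UMI. In an alternative chosen after seeing the data, without members with 10 or more UMI of another lineage, the ratios were 1.29 for Timd4, 15.1 for Marco and 5.33 for Cd163. Genes past 1.5-fold between Timd4 sets numbered 759, against 357 with at most 5% mitochondrial UMI and 86 of 2938 with at least 100 UMI. With at least 5 CPM in either class, 2798 genes passed 2-fold against classical monocyte-like cells in place of 1757, and 3378 against nonclassical monocyte-like cells in place of 2124. In the Marco comparison, Cd36 was at 0, Cd55 at 0.452, Tfrc at 0.862, Cdh5 at 0.906 and Igf1 at 0.945 with at most 5% mitochondrial UMI, and Cd209f at 0.847 with at most 2 endothelial UMI. Marco between Timd4 sets was at 0.513 with at most 5% mitochondrial UMI. Cd163 between Timd4 sets was at 1.03 and Marco between Cd163 sets at 1.04 with at most 2 endothelial UMI, and at 1.12 and 1.11 with part A thinned to 1000 UMI. Cd163 between Timd4 sets was at 1.05 without members of another lineage, and Marco between Cd163 sets at 1.23 with Clec4f at least 10 UMI. Some settings leave fewer cells or genes, and the causes of these changes were not tested. No paired analysis was possible because both samples held the same matrix. With 1 sample and no replicate, leaving out a replicate could not be done, and no value speaks for variation between animals.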

Other observations

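A further 190 cells met every limit of Kupffer cells but that on the endothelial genes, of which they held more than 5 UMI; 167 of them had more than 20. These cells were deeper, with a median of 23320 UMI, against 14253 UMI in the 386 members. Clec4f was at 2822 CPM, Vsig4 at 1370 CPM and Timd4 at 340 CPM in them, against 4590, 2087 and 516 CPM in members. The endothelial genes Stab2 and Esam were at 404 and 209 CPM, against 72.8 and 1.86 CPM in members. Marco was at 456 CPM and Cd163 at 388 CPM in them, against 762 and 491 CPM in members. Whether these barcodes held 1 cell or more was not tested.

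The limit on Mki67 and Top2a left out 22 cells that met the other conditions. They had Timd4 at 476 CPM, Marco at 845 CPM and Cd163 at 520 CPM, against 516, 762 and 491 CPM in the 386 members, and a median of 21614 UMI.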
